A study of Mus musculus with 24 samples.

Results

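The contrast described here sets the effect of losing Dmrt2 against the effect of losing Hmx3 and Hmx2 in the mouse kidney at embryonic day 18.5, shortly before birth. For every gene it is the log2 change of Dmrt2 knockouts relative to Dmrt2 controls, minus the log2 change of Hmx3 Hmx2 knockouts relative to Hmx3 Hmx2 controls. A positive difference means that the gene stood higher, relative to its own controls, in kidneys without Dmrt2 than in kidneys without Hmx3 and Hmx2, and a negative one the reverse. It rests on the 18 of 24 libraries whose titles place them in these 4 groups: 3 Dmrt2 KO, 3 Dmrt2 control, 6 Hmx3; Hmx2 KO and 6 Hmx3; Hmx2 control. The remaining 6 libraries, of a line lacking all of these genes and its controls, enter no value below except one named alternative.

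RNA of whole kidneys was read as bulk poly(A) RNA sequencing. The Dmrt2 mice form a single line and the Hmx3; Hmx2 mice another, and the controls of each line are littermates of its knockouts. The sample names call Hmx3; Hmx2 controls 1 to 3 WT, that is wild type, and for the other controls the labels say only that they are controls. The labels used here describe neither the alleles nor the parental background. Nothing in the labels ties each library to an embryo of its own, and the p-values therefore reflect only how these libraries vary, which may in part be technical. Every embryo has the same age, and the Hmx3 Hmx2 libraries were deposited in a pair of tables, with replicates 1 to 3 in one and 4 to 6 in the other.

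Intercalated cells are the acid and base transporting cells of the collecting duct. Type A cells secrete acid into the urine and take bicarbonate back to the blood, through proton pumps on the urine side and the anion exchanger band 3 on the blood side. Type B cells do the opposite, with the anion exchanger pendrin on the urine side, and non-A non-B cells carry both pendrin and proton pumps on that side. All of them depend on the forkhead factor Foxi1, and the study asks how the DM-domain factor Dmrt2 and the homeobox factors Hmx2 and Hmx3 divide these subtypes.

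Start-site windows are printed for the 3 genes on which the contrast turns. Slc26a4 and Tldc2 are the untargeted genes that moved in opposite directions in the knockouts, and Aqp6 had the most negative difference among type A genes. The windows are RefSeq sequence on GRCm38.p6 from 250 bases before to 50 bases after the annotated start, a build other than the mm39 build of the counts. They lie at chr12:31559935-31560234 on the minus strand for Slc26a4, at chr2:157086760-157087059 on the plus strand for Tldc2 and at chr15:99600950-99601249 on the plus strand for Aqp6. Capitals mark a match to CAAGTG, a core of sites bound by Hmx proteins in vitro, or to ACANTGT, a core of DM-domain sites, on either strand.
Slc26a4: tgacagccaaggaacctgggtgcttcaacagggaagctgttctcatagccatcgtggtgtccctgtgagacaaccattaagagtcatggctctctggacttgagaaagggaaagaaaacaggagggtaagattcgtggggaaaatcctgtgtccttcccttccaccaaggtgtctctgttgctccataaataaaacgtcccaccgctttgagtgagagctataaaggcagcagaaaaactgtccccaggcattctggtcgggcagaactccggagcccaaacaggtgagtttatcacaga
Tldc2: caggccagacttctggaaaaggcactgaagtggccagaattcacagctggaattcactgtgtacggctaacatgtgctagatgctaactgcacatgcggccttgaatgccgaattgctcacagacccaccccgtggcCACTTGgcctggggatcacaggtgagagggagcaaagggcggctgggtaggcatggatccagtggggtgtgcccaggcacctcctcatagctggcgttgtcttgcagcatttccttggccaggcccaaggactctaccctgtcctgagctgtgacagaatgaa
Aqp6: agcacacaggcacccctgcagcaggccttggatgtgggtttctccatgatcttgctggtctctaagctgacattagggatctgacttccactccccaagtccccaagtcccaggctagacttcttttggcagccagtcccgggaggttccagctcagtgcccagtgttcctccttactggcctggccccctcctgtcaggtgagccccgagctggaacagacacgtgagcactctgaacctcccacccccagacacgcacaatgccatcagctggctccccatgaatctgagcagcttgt
The Tldc2 window held CAAGTG once, on the opposite strand and 113 bases before the start (offset -113), and the other windows held neither core. CAAGTG is also a form of the E-box CANNTG and is common, since it was found in 13.6% of all 32851 RefSeq mouse windows and in 13.9% of those of tested genes. Of the 36 genes with a called difference (adjusted p at most 0.05) and a window, 7 held CAAGTG (19.4%) and 3 held ACANTGT (8.33%). For ACANTGT the shares were 7.54% of all windows and 5.45% of tested genes. A match describes these letters only and says nothing of binding.

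Libraries held 61563937 to 127339273 counted reads in Dmrt2 knockouts, 71103531 to 77909704 in Dmrt2 controls, 52286824 to 66031622 in Hmx3 Hmx2 knockouts and 55626702 to 91451356 in Hmx3 Hmx2 controls. Levels are given in CPM on library totals scaled by the TMM method. A gene without reads was given a limit of 3 reads, and this floor stood between 0.0236 and 0.0574 CPM, for counting error only. Paired reads were counted singly, so 3 reads are fewer than 3 fragments and this floor is a low estimate. Expression of Y-linked genes was seen in 1 of 3 Dmrt2 knockouts, 3 of 3 Dmrt2 controls, 2 of 6 Hmx3 Hmx2 knockouts and 4 of 6 Hmx3 Hmx2 controls, so the share of such libraries differs most between the Dmrt2 groups. The Dmrt2 controls also stood apart from the other 15 libraries in some genes described below.

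Of 20994 genes tested, the difference was called for 52 (0.248%), 13 higher (0.0619%) and 39 lower (0.186%), and 1603 had an unadjusted p under 0.05. The count was 31 without Dmrt2 knockout replicate 2 and 84 without Dmrt2 control replicate 1. In whole kidneys fewer cells of a type and less RNA per cell cannot be told apart, which holds for every value below. Groups of 3 libraries separate more readily by chance than groups of 6. No share of separated genes over all tested genes is given here. The Dmrt2 effect was itself called for 49 of the 52, and for 46 of them the Hmx3 Hmx2 effect was not. Over all tested genes the Dmrt2 effect was called for 155 (0.738%) and the Hmx3 Hmx2 effect for 4 (0.0191%), with 962 below an unadjusted p of 0.05. The median standard error (SE) over genes was 0.11 log2 units for the Dmrt2 effect, 0.08 for the Hmx3 Hmx2 effect and 0.14 for the difference.

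**Figure D1:**
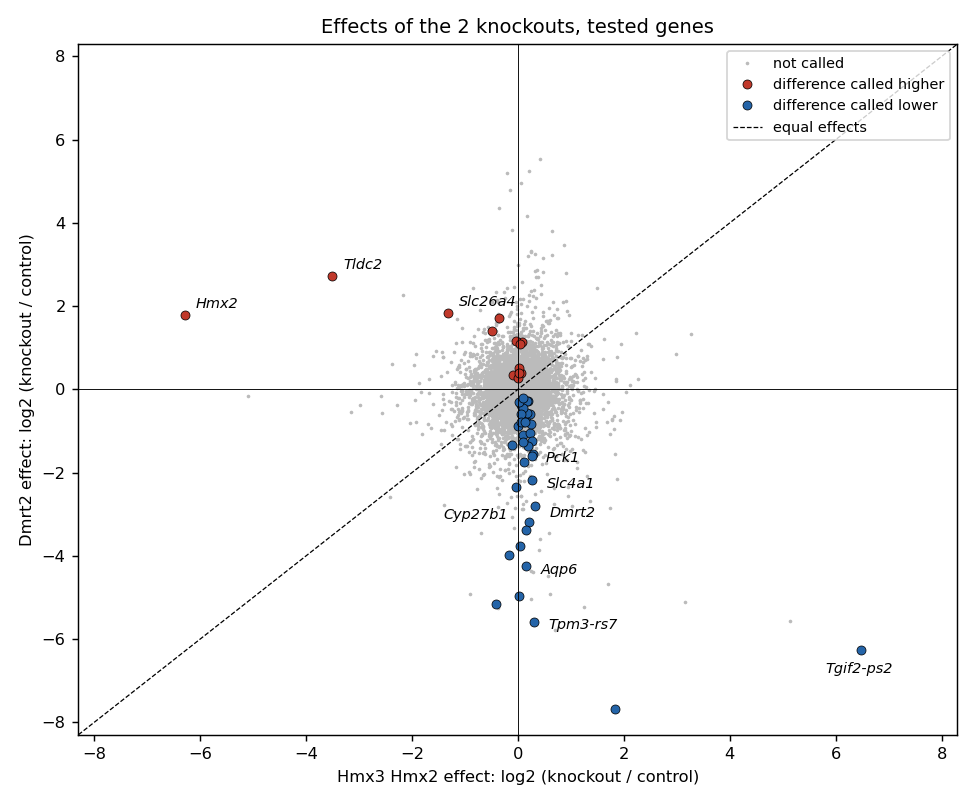
Log2 change in Dmrt2 knockouts (vertical axis) against log2 change in Hmx3 Hmx2 knockouts (horizontal axis), each relative to controls of its own line, for 20994 tested genes. Red and blue points are the 13 and 39 genes whose difference was called higher and lower, and the dashed line marks equal effects. Most coloured points lie along the vertical axis, and Hmx2, Tldc2 and Slc26a4 lie in the upper left.

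Only 3 genes (0.0143% of those tested) were called for both knockouts, in opposite directions: Slc26a4, Tldc2 and Hmx2. Slc26a4 encodes pendrin, the exchanger that moves chloride into and bicarbonate out of its cells at the urine side (chromosome 12, 31569826 to 31609968 on mm39). Its level was 16.3, 14.8 and 17.5 CPM in Dmrt2 knockouts and 3.91, 3.41 and 6.35 CPM in Dmrt2 controls. In Hmx3 Hmx2 knockouts it ran from 1.14 to 1.66 CPM with a median of 1.58, and in Hmx3 Hmx2 controls from 2.78 to 4.54 with a median of 3.54. All Dmrt2 knockouts thus lay above their controls and all Hmx3 Hmx2 knockouts below theirs. The log2 effects were 1.83 ± 0.20 (SE) and -1.31 ± 0.16, and the difference of 3.14 ± 0.26 had an adjusted p of 3.1e-07 (edgeR's quasi-likelihood test with Benjamini-Hochberg adjustment). Within the separate Hmx3 Hmx2 tables the difference was 3.16 with replicates 1 to 3 and 3.13 with replicates 4 to 6. In fits of those replicates alone the Hmx3 Hmx2 effect of Slc26a4 on its own was no longer called, which left 2 genes called in opposite directions.

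Tldc2, a gene of the TLDc domain family whose members include regulators of the vacuolar proton pump (chromosome 2, 156928975 to 156938402), showed the same pattern with a larger range. It stood at 9.55, 9.94 and 9.07 CPM in Dmrt2 knockouts, against 1.25, 1.42 and 1.64 CPM in Dmrt2 controls. Hmx3 Hmx2 knockouts held 2 to 6 reads each, at 0.0303 to 0.106 CPM, against 28 to 126 reads and 0.506 to 1.41 CPM in their controls. Neither pair of groups overlapped, and the knockout levels of the Hmx3 Hmx2 line lay at or near the floor, which is a low estimate. The log2 effects were 2.73 ± 0.25 and -3.50 ± 0.27, and the difference was 6.23 ± 0.37 with an adjusted p of 1.3e-10. The Hmx3 Hmx2 effect was -4.13 in replicates 1 to 3 and -2.77 in replicates 4 to 6, a gap with an unadjusted p of 0.0249 and an adjusted p of 1.00 over all genes. The difference was 6.85 with the first of these tables and 5.49 with the second.

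The targeted genes are the third part of this pattern, and their own loss enters the contrast by construction. Hmx2 stood at 14.3, 13.7 and 14.2 CPM in Dmrt2 knockouts and 3.58, 3.58 and 5.05 CPM in Dmrt2 controls, with 8 reads summed in the 6 knockouts of the Hmx3 Hmx2 line and 807 in its controls. Every Dmrt2 knockout was above every Dmrt2 control, with a log2 effect of 1.79 ± 0.21 (adjusted p = 3.0e-05), and the difference was 8.07 ± 0.38 (adjusted p = 4.8e-12). Its neighbour Hmx3 stood at 0.870, 1.07 and 0.895 CPM in Dmrt2 knockouts and 0.138, 0.0516 and 0.399 CPM in Dmrt2 controls, with 0 to 4 reads in Hmx3 Hmx2 knockouts and 2 to 8 reads in their controls. The last values are near the floor, and the difference of 4.44 ± 0.96 missed the threshold (adjusted p = 0.0529), although 7 of 28 alternatives called it. Dmrt2 itself stood at 2.14, 2.25 and 1.57 CPM in its knockouts and 12.3, 14.01 and 14.9 CPM in their controls, and ran from 9.47 to 12.8 CPM (median 11.4) in Hmx3 Hmx2 knockouts against 7.97 to 10.02 CPM (median 9.25) in their controls. Over all their libraries the Hmx3 Hmx2 groups overlapped. Within replicates 1 to 3 every knockout (12.1 to 12.8 CPM) lay above every control (9.26 to 10.02 CPM). The same held within replicates 4 to 6, at 9.47 to 10.8 CPM against 7.97 to 9.24 CPM. The Hmx3 Hmx2 effect on Dmrt2 of 0.32 ± 0.08 had an unadjusted p of 0.00040 and an adjusted p of 0.926. The difference for Dmrt2, -3.13 ± 0.14, was called (adjusted p = 1.4e-12).

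Type A genes all lay on the opposite side. The 5 tested members of the type A list had negative differences, with 3 called lower and 0 higher, and a median difference of -0.73 against 0.00097 over all tested genes. Of all tested genes 0.186% were called lower and 0.0619% higher. Each of the 5 had a negative Dmrt2 estimate and a positive Hmx3 Hmx2 estimate. Over all tested genes the estimates had opposite signs, in either order, for 42.3%, and nothing was tested on these signs. Slc4a1, which encodes band 3, stood at 3.13, 3.65 and 4.35 CPM in Dmrt2 knockouts, against 18.5, 15.5 and 17.1 CPM in Dmrt2 controls. It ran from 20.2 to 25.6 CPM (median 22.1) in Hmx3 Hmx2 knockouts and from 16.7 to 20.7 CPM (median 18.6) in their controls. The Dmrt2 groups were far apart, and in the Hmx3 Hmx2 line only the edges of the groups met. That overlap was within replicates 4 to 6, and within replicates 1 to 3 the knockouts lay above the controls. The log2 effects were -2.19 ± 0.11 and 0.27 ± 0.07, the second with an unadjusted p of 0.0012 and not called over all genes. The difference was -2.46 ± 0.13 (adjusted p = 3.0e-11), at -2.60 with Hmx3 Hmx2 replicates 1 to 3 and -2.33 with replicates 4 to 6.

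Red blood cell precursors also make band 3, so erythroid genes were read beside it. None of the 9 erythroid list members was called by edgeR or DESeq2, none had an unadjusted p under 0.05, and their median difference was 0.05. Their summed level was 1066 to 1233 CPM in Dmrt2 knockouts and 974 to 1326 CPM in Dmrt2 controls, and 891 to 1741 CPM in Hmx3 Hmx2 knockouts and 851 to 1886 CPM in their controls. The groups overlapped in both lines.

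Aqp6, a channel in vesicles of type A cells, stood at 0.841, 0.905 and 0.612 CPM in Dmrt2 knockouts and at 12.2, 13.3 and 18.5 CPM in Dmrt2 controls. It ran from 7.96 to 18.01 CPM (median 14.03) in Hmx3 Hmx2 knockouts and from 8.80 to 18.7 CPM (median 10.9) in their controls, and these ranges nearly coincide. The difference, -4.41 ± 0.31 (adjusted p = 1.1e-06), therefore came from a Dmrt2 effect of -4.25 ± 0.27 beside an Hmx3 Hmx2 effect of 0.16 ± 0.16.

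Kit, a receptor tyrosine kinase that type A cells carry in the mouse kidney, moved less. It stood at 38.9, 37.6 and 33.4 CPM in Dmrt2 knockouts, against 52.8, 54.8 and 55.1 CPM in Dmrt2 controls. Hmx3 Hmx2 knockouts ran from 52.4 to 64.9 CPM (median 60.1) and their controls from 49.5 to 59.7 CPM (median 52.9). Only the Dmrt2 groups were separate. The effects of -0.57 ± 0.07 and 0.16 ± 0.05 gave a difference of -0.73 ± 0.08 (adjusted p = 1.5e-05). Adgrf5, an adhesion receptor, and Slc26a7, an anion exchanger, were not called. Adgrf5 had a difference of -0.44 (95% interval -0.70 to -0.19, adjusted p = 0.230) and Slc26a7 one of -0.34 (-0.64 to -0.05, adjusted p = 0.572).

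Genes that mark the pendrin-bearing subtypes, type B and non-A non-B, did not move as a group. Of the 7 tested, 2 were called higher, 1 was called lower and 4 were not called, and the median difference was 0.49. Among all tested genes 0.0619% were called higher and 0.186% lower. In a fit without chromosome 3 genes, which leaves out Insrr, the median of the other 6 was 0.18. Slc26a4 has been described. Slc4a9, an exchanger on the blood side of type B cells, stood at 75.3, 66.2 and 63.5 CPM in Dmrt2 knockouts and 48.5, 46.3 and 49.4 CPM in Dmrt2 controls, and ran from 43.1 to 51.3 CPM in Hmx3 Hmx2 knockouts and 40.9 to 50.3 CPM in their controls. The groups of the Hmx3 Hmx2 line overlapped throughout. The Dmrt2 effect was 0.51 ± 0.07, the Hmx3 Hmx2 effect 0.02 ± 0.05, and the difference 0.49 ± 0.08 (adjusted p = 0.0048).

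Oxgr1, the oxoglutarate receptor of pendrin-bearing cells, went the other way. It stood at 6.26, 7.82 and 6.83 CPM in Dmrt2 knockouts and 11.1, 11.2 and 14.7 CPM in Dmrt2 controls. Hmx3 Hmx2 knockouts ran from 15.2 to 17.8 CPM (median 16.8) and their controls from 12.98 to 15.2 CPM (median 13.9). The Dmrt2 knockouts lay below all other libraries, and the Hmx3 Hmx2 groups, taken over all their libraries, met only at their edges. Within replicates 1 to 3 every knockout (16.5 to 17.8 CPM) lay above every control (12.98 to 15.2 CPM). The same held within replicates 4 to 6, at 15.2 to 17.5 CPM against 13.2 to 14.1 CPM. The effects were -0.82 ± 0.10 and 0.24 ± 0.07, with an unadjusted p of 0.0030 and no call for Hmx3 Hmx2, and the difference was -1.06 ± 0.13 (adjusted p = 4.5e-05).

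Insrr, a receptor kinase that senses alkaline fluid, and Sh2d4b, an adaptor, had positive differences that missed the threshold. Insrr stood at 38.1, 34.8 and 32.7 CPM in Dmrt2 knockouts and 24.8, 22.3 and 22.4 CPM in Dmrt2 controls, while the Hmx3 Hmx2 groups overlapped at 13.1 to 20.1 CPM in knockouts and 15.9 to 20.0 CPM in controls. Its difference was 0.67 ± 0.16 (adjusted p = 0.130), and 3 of 29 alternatives called it. Sh2d4b had a difference of 0.75 (95% interval 0.31 to 1.19, adjusted p = 0.230). For Slc4a8, a sodium-dependent exchanger, the difference was -0.15 (-0.36 to 0.06), and for Spink8, a protease inhibitor, -0.48 (-0.93 to -0.02). Neither was called, with adjusted p of 0.784 and 0.62498.

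**Figure D2:**
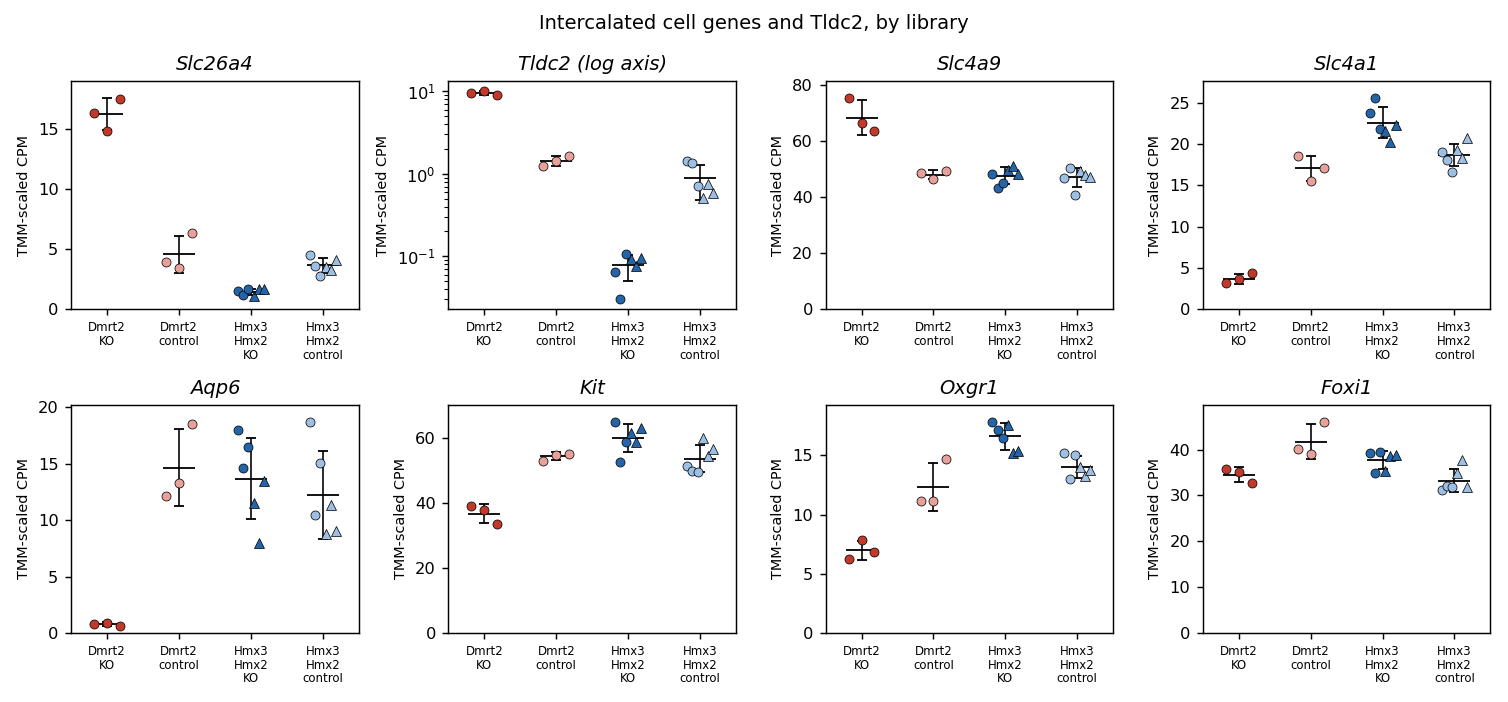
TMM-scaled CPM in each library for 8 genes, with Dmrt2 knockouts left of Dmrt2 controls and Hmx3 Hmx2 knockouts left of Hmx3 Hmx2 controls. Bars are the mean ± SD, triangles are Hmx3 Hmx2 replicates 4 to 6, and the Tldc2 axis is logarithmic. Over all libraries, Slc26a4 and Tldc2 separate both pairs of groups in opposite directions, and the other 6 genes separate only the Dmrt2 groups. In the Hmx3 Hmx2 line those 6 overlap, which does not exclude separation within replicates 1 to 3 or 4 to 6. Oxgr1 separated within each of these sets. Each of the 8 genes had a called difference, so separation of the Dmrt2 groups follows in part from that choice. No share of separated genes over all tested genes is given. The Dmrt2 groups hold 3 libraries and the Hmx3 Hmx2 groups 6, so separation is not an equal measure in both lines.

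Genes listed here as pan-intercalated lay on the side of the type A genes, at smaller values. Whether every subtype carries each of them was not tested. All 12 tested members of the pan-intercalated list had a negative difference, from -0.91 to -0.10 with a median of -0.28. Of these, 3 were called lower and none higher, and 10 of the 12 combined a negative Dmrt2 estimate with a positive Hmx3 Hmx2 estimate. Over all tested genes 0.186% were called lower, and 42.3% had opposite signs in either order. Nothing was tested on these signs. Atp6v1g3, a subunit of the vacuolar proton pump, stood at 8.38, 6.82 and 8.24 CPM in Dmrt2 knockouts and 12.5, 12.6 and 14.8 CPM in Dmrt2 controls, with 11.1 to 15.8 CPM in Hmx3 Hmx2 knockouts and 10.4 to 15.2 CPM in their controls. Its difference was -0.91 ± 0.15 (adjusted p = 0.0035). Rhbg, an ammonium transporter on the blood side whose gene lies on chromosome 3, had 2.06, 1.57 and 1.70 CPM in Dmrt2 knockouts, against 3.05, 3.29 and 3.43 CPM in Dmrt2 controls. It had 3.06 to 5.71 CPM in Hmx3 Hmx2 knockouts and 3.35 to 5.91 CPM in their controls. For both genes the Hmx3 Hmx2 groups overlapped over most of their range. The difference for Rhbg, -0.88 ± 0.18 (adjusted p = 0.0252), was lost in 12 of 29 alternatives.

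Foxi1, the master factor of intercalated cells, had a called difference although neither effect was called by itself. It stood at 35.8, 35.0 and 32.7 CPM in Dmrt2 knockouts and 40.0, 39.1 and 46.1 CPM in Dmrt2 controls. Hmx3 Hmx2 knockouts ran from 34.9 to 39.4 CPM (median 38.8) and their controls from 31.2 to 37.7 CPM (median 31.9). The Dmrt2 groups did not overlap and those of the Hmx3 Hmx2 line did. Within replicates 1 to 3 the Hmx3 Hmx2 knockouts lay above the controls, and within replicates 4 to 6 they overlapped with them. The effects of -0.27 ± 0.07 (adjusted p = 0.0841) and 0.19 ± 0.05 (unadjusted p = 0.0018) gave a difference of -0.46 ± 0.09 (adjusted p = 0.0237), which 6 of 30 alternatives lost. Here the Dmrt2 controls were farther from the Hmx3 Hmx2 controls than the Dmrt2 knockouts were, which was so for 1 of the 9 called intercalated genes. Tfcp2l1, another factor of these cells, had a difference of -0.28 (95% interval -0.48 to -0.08) and was not called.

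**Figure D3:**
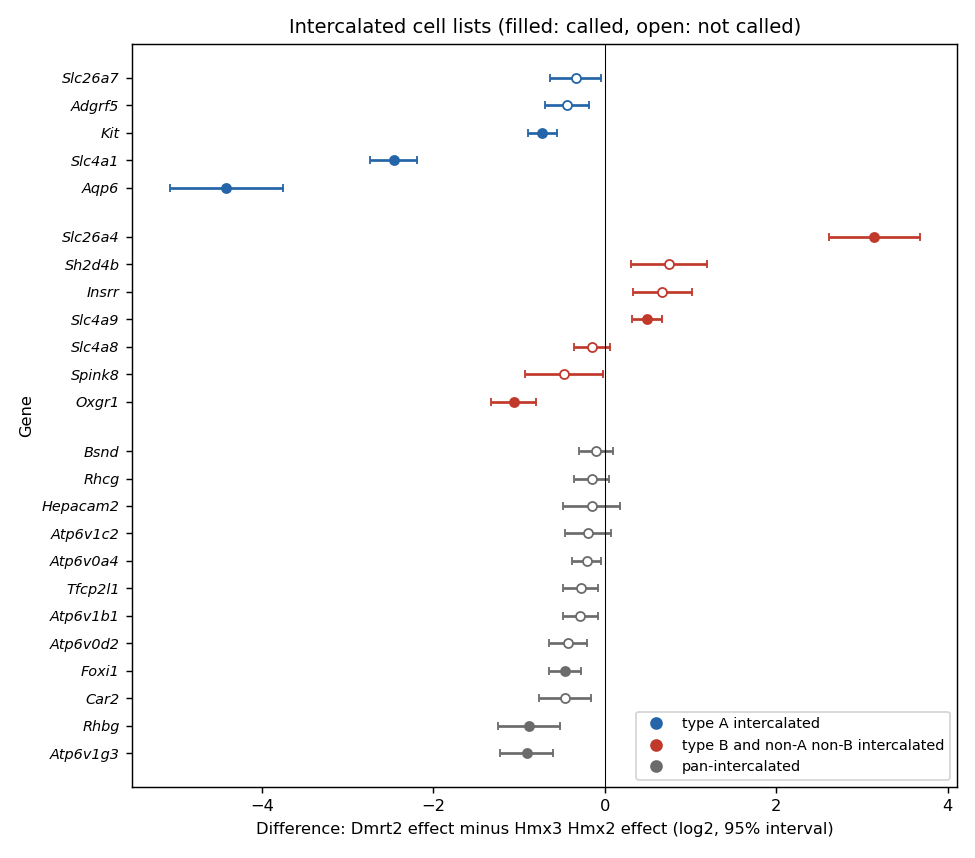
Difference between the Dmrt2 effect and the Hmx3 Hmx2 effect on the log2 scale, with 95% intervals, for the 24 tested genes of the 3 intercalated lists. Filled points were called and open points were not. Type A and pan-intercalated genes lie left of 0, and genes of the pendrin-bearing subtypes lie on both sides, from Oxgr1 at -1.06 to Slc26a4 at 3.14.

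Across the 3 intercalated lists 9 of 24 tested genes were called (0.248% of all tested genes were called), 2 higher and 7 lower. Neighbouring cell types of the collecting duct and the pathway that separates them gave no call. None of 10 principal cell genes was called, and their median difference was -0.09, with members from -0.74 to 2.04. An unadjusted edgeR p under 0.05 was found for 4 of the 10, against 1603 of 20994 tested genes, while DESeq2 called 1. Aqp2, the vasopressin-regulated water channel, had a difference of -0.74 (95% interval -1.31 to -0.17, adjusted p = 0.499). Of 16 Notch pathway genes, which set the choice between principal and intercalated fate, none was called by edgeR or DESeq2, 1 had an unadjusted p under 0.05, and the differences ran from -0.05 to 0.20. In the Notch list the intervals were narrow for most members, such as 0.02 for the target gene Hes1 (-0.21 to 0.24) and 0.16 for the ligand Jag1 (0.02 to 0.29). The ureteric, distal convoluted tubule, loop of Henle, podocyte, nephron progenitor, stroma, endothelium, macrophage and proliferation lists held no gene called by edgeR, with median differences between -0.11 and 0.10. Across these lists single members ran from -0.61 to 0.96. Of their members 4, 2, 3, 1, 1, 0, 2, 1 and 0 had an unadjusted p under 0.05, in that order, and DESeq2 called 1 podocyte gene and none of the others. The immediate early and heat shock list had 0 of 10 called and a median of 0.13, with 2 at an unadjusted p under 0.05 and 0 by DESeq2. For tissues that lie around the kidney, part of each list passed the filter on low counts: 5 of 7 for skeletal muscle (median -0.54), 5 of 7 for adrenal gland (-0.17) and 1 of 5 for adipose tissue (-0.12). Neither tool called any of these, and 2, 1 and 0 of them had an unadjusted p under 0.05.

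Of 8 tested genes of the ammonia and gluconeogenesis list, whose enzymes the proximal tubule makes, 3 were called lower (Pck1, G6pc and Fbp1), none higher and 5 not, and the median difference was -0.48. Over all tested genes 0.186% were called lower and 0.0619% higher. Pck1, the rate-limiting enzyme of glucose synthesis, stood at 85.4, 58.5 and 84.7 CPM in Dmrt2 knockouts, against 244.7, 202.5 and 248 CPM in Dmrt2 controls. It ran from 134 to 400.0 CPM (median 204) in Hmx3 Hmx2 knockouts and from 138 to 243 CPM (median 182) in their controls. All Dmrt2 knockouts were below all other libraries, and the Hmx3 Hmx2 groups overlapped. The difference was -1.86 ± 0.25 (adjusted p = 0.0043), with effects of -1.60 ± 0.21 and 0.26 ± 0.14.

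G6pc and Fbp1, the later enzymes of that route, are given here after their values were seen. G6pc stood at 13.9, 8.89 and 12.5 CPM in Dmrt2 knockouts and 26.1, 19.3 and 28.0 CPM in Dmrt2 controls, with 15.1 to 25.3 CPM in Hmx3 Hmx2 knockouts and 14.7 to 18.9 CPM in their controls. The difference of -1.29 ± 0.24 (adjusted p = 0.0420) was lost in 17 of 30 alternatives, among them the fit with Y-linked expression as a covariate (adjusted p = 0.0514). Fbp1 stood at 192, 207 and 205 CPM in Dmrt2 knockouts and 282, 266.0 and 373 CPM in Dmrt2 controls, and its difference was -0.68 ± 0.12 (adjusted p = 0.0143). That call was lost in 4 of 30 alternatives, with an adjusted p of up to 0.329: the joint fit with the other line, the fits with Hmx3 Hmx2 replicates 1 to 3 or 4 to 6 alone, and the fit without Dmrt2 knockout replicate 1. Slc38a3, the glutamine transporter that feeds ammonia production, had a difference of -0.89 (95% interval -1.32 to -0.46) without a call (adjusted p = 0.116). Glud1 and Slc9a3 of the same list lay at 0.03 and 0.15.

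Cyp27b1 encodes the enzyme that makes active vitamin D (chromosome 10, 126884119 to 126888875). It stood at 9.72, 9.41 and 8.40 CPM in Dmrt2 knockouts and at 44.3, 92.3 and 147 CPM in Dmrt2 controls. It ran from 119 to 182 CPM (median 143) in Hmx3 Hmx2 knockouts and from 98.9 to 178 CPM (median 123) in their controls. The Dmrt2 controls varied widely among themselves and still lay above all Dmrt2 knockouts, while the Hmx3 Hmx2 groups overlapped. The difference was -3.53 ± 0.40 (adjusted p = 9.5e-04). Its call held in 28 of 30 alternatives and was lost in both fits with only part of the Hmx3 Hmx2 libraries, replicates 1 to 3 or 4 to 6, with an adjusted p of up to 0.145. In the same kidneys none of 10 general proximal tubule genes was called by edgeR, with a median difference of -0.01. DESeq2 called 1, and 2 had an unadjusted p under 0.05. Their summed level was 3044 to 3394 CPM in Dmrt2 knockouts and 2739 to 3619 CPM in Dmrt2 controls.

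**Figure D4:**
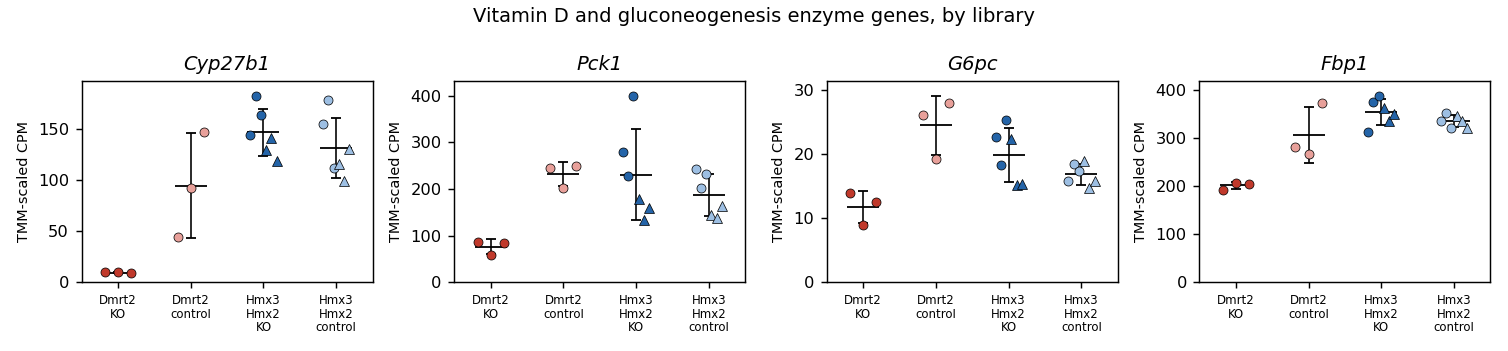
TMM-scaled CPM in each library for Cyp27b1, Pck1, G6pc and Fbp1, with knockouts left of the controls of their line. Bars are the mean ± SD, and triangles are Hmx3 Hmx2 replicates 4 to 6. In each panel the 3 Dmrt2 knockouts lie below the 3 Dmrt2 controls, and the Hmx3 Hmx2 groups overlap. All of these genes had a called difference, so separation of the Dmrt2 groups follows in part from that choice.

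For part of the called genes it was the Dmrt2 controls and not the Dmrt2 knockouts that stood apart. The mean of the Dmrt2 controls was farther from the mean of the Hmx3 Hmx2 controls than that of the Dmrt2 knockouts for 28 of the 52 genes, on a log2 scale after adding 0.01 CPM. For 14 genes the Dmrt2 controls were over 2-fold away and the Dmrt2 knockouts within 2-fold, for 12 it was the other way round, for 1 both were over 2-fold away and for 25 neither was. No share over all tested genes is given for these counts, and they were not tested. The Dmrt2 groups differed in 49 of the 52 genes by their own call, so either group could be the farther. The counts therefore show no preference for the controls. Tpm3-rs7, a tropomyosin retrogene on chromosome 14, stood at 1.94, 2.17 and 2.21 CPM in Dmrt2 knockouts and 103.5, 105.8 and 95.9 CPM in Dmrt2 controls, against 1.59 to 2.27 CPM in Hmx3 Hmx2 knockouts and 1.45 to 1.91 CPM in their controls. The 3 Dmrt2 controls were alone among the 18 libraries in this. Its difference of -5.90 ± 0.13 (adjusted p = 9.6e-19) had the smallest adjusted p of all genes. Hsd3b2, a steroid dehydrogenase gene on chromosome 3, also stood apart in the Dmrt2 controls, with 1.83, 2.75 and 1.16 CPM in Dmrt2 knockouts and 29.5, 23.6 and 23.5 CPM in Dmrt2 controls, and with 1.09 to 2.95 CPM in the Hmx3 Hmx2 line. Rps3a2, a ribosomal protein retrogene with a difference of -2.31 ± 0.23, averaged 2.18 CPM in Dmrt2 knockouts and 11.04 CPM in Dmrt2 controls, beside 1.47 CPM in Hmx3 Hmx2 knockouts and 1.497 CPM in their controls. Rbm46, an RNA-binding protein gene with a difference of -1.84 ± 0.31, averaged 0.961 and 3.22 CPM in the same Dmrt2 groups, beside 1.16 and 1.077 CPM in Hmx3 Hmx2 knockouts and controls.

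Several of these genes lie on chromosome 3, overlap another gene or resemble one closely. Chromosome 3 held 9 of the 52 called genes (17.3%) and 1083 of the tested ones (5.16%), and for 6 of the 9 the Dmrt2 controls were the group farther away. They include Fgb, a fibrinogen chain gene, with 3.77, 3.49 and 3.34 CPM in Dmrt2 knockouts and 1.76, 1.19 and 1.76 CPM in Dmrt2 controls, beside 3.16 to 5.64 CPM in Hmx3 Hmx2 knockouts and 3.55 to 6.77 CPM in their controls. Its difference was 1.21 ± 0.22 (adjusted p = 0.0141), and it was the only called gene of 10 in the liver list. Zfp697, a zinc finger gene (0.37 ± 0.06, adjusted p = 0.0017), overlaps Hsd3b2 on the other strand, and both lie on chromosome 3. Retrogenes and gene family members such as Tpm3-rs7, Rps3a2, Hsd3b2 and Acat3 resemble other genes closely, so their counts are uncertain. The line of the Dmrt2 libraries and the table they were deposited in cannot be told apart.

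**Figure D5:**
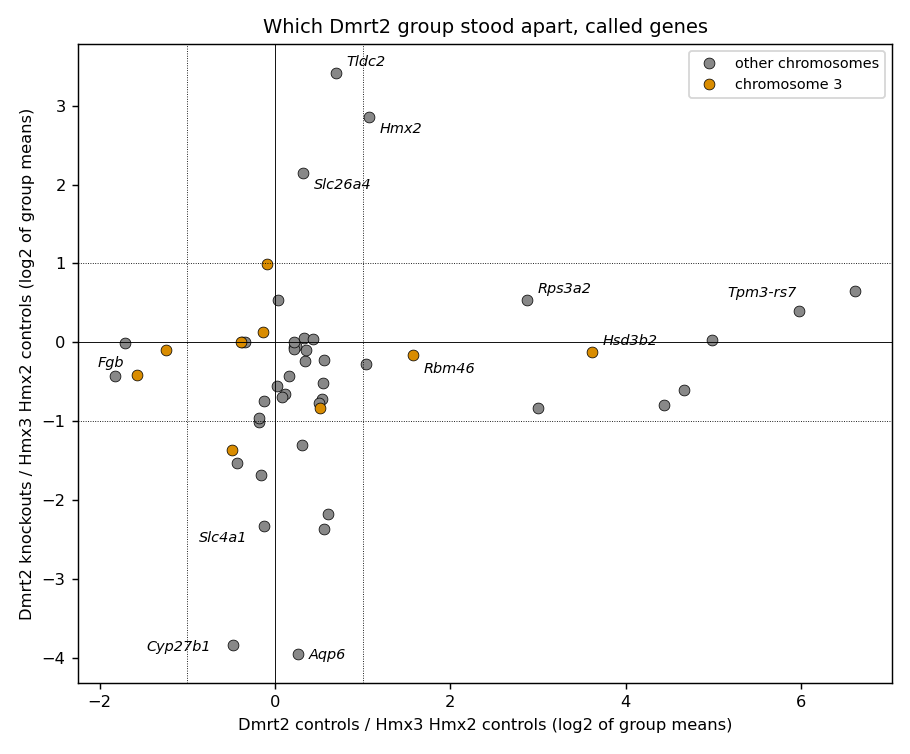
Mean level of the Dmrt2 knockouts (vertical axis) and of the Dmrt2 controls (horizontal axis), each relative to the mean of the Hmx3 Hmx2 controls, on a log2 scale after adding 0.01 CPM, for the 52 called genes. Dotted lines mark a 2-fold distance and orange points are the 9 genes on chromosome 3. Slc4a1, Aqp6, Cyp27b1, Slc26a4 and Tldc2 lie within 2-fold horizontally, from -0.48 for Cyp27b1 to 0.69 for Tldc2. Tpm3-rs7, Hsd3b2, Rps3a2 and Rbm46 lie within 2-fold vertically, from -0.16 for Rbm46 to 0.54 for Rps3a2.

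The remaining genes named by size had smaller or less stable differences. Dscaml1, a cell adhesion gene, had 0.348, 0.291 and 0.338 CPM in Dmrt2 knockouts and 0.882, 0.904 and 1.082 CPM in Dmrt2 controls, beside 0.922 to 2.04 CPM in Hmx3 Hmx2 knockouts and 0.754 to 1.57 CPM in their controls. Its difference was -1.83 ± 0.32 (adjusted p = 0.0089). Mab21l3, a chromosome 3 gene, stood at 9.90, 8.70 and 10.4 CPM in Dmrt2 knockouts and 3.83, 4.86 and 4.98 CPM in Dmrt2 controls, with overlapping Hmx3 Hmx2 groups of 4.04 to 6.65 CPM in knockouts and 4.24 to 6.47 CPM in controls. Its difference, 1.05 ± 0.22 (adjusted p = 0.0417), was called in 9 of 29 alternatives. Mzt1, a microtubule nucleation gene (0.44 ± 0.09), Cdh4, a cadherin gene (0.34 ± 0.07), and Tpm3, a tropomyosin gene on chromosome 3 (0.27 ± 0.06), had adjusted p between 0.0309 and 0.0444. In each the Dmrt2 controls were farther from the Hmx3 Hmx2 controls than the Dmrt2 knockouts were. On the log2 scale the distances were -0.34 against 0.01 for Mzt1, -0.38 against 0.01 for Cdh4 and -0.143 against 0.135 for Tpm3. Tpm3 was thus lowest in the libraries where Tpm3-rs7 was high, and a link was not tested. Mzt1 was called in 17 of 30 alternatives, Cdh4 in 9 of 30 and Tpm3 in 11 of 29. One of the alternatives in which all 4 of these genes lost their call was the fit with Y-linked expression as a covariate, with adjusted p of 0.0514 for Mzt1, 0.0810 for Cdh4, 0.0522 for Tpm3 and 0.0718 for Mab21l3.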

How the data were processed

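RNA of whole embryonic kidneys was measured in 18 libraries of 4 groups, named by their titles. The authors deposited raw counts, one value per gene and library, in tables of 54393 genes. Per the submitters' processing notes, the tools were fastp 0.20.1, STAR 2.7.0e and featureCounts 2.0.1, on mm39. The file headers name featureCounts 2.0.3 and GENCODE vM29, with paired reads counted singly (88.0% to 94.1% of counts from 1 to 19 were even numbers) and no options for strand, multi-mapping or overlapping reads. Reads of near-identical copies or overlapping genes were therefore lost, and no molecular identifiers were used. Left out were 2 columns matching no sample.

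Counts of the 18 libraries were analysed together in edgeR 4.0.16 (R 4.3.3): TMM scaling, filterByExpr with a minimum count of 10 and a total of 15, robust quasi-likelihood F tests with 13 residual degrees of freedom, and Benjamini-Hochberg adjustment over all 20994 genes tested. The deposited table was a term, and a gene with an adjusted p of at most 0.05 is called. SE is the absolute log2 value divided by the square root of F. The script was tested on simulated data. No replicates were merged, since each of 18 pairs differed beyond counting noise (chi-square over its degrees of freedom 5.61 to 26.48).

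The genes and lists were chosen with earlier results of these data known. By rule the text names Dmrt2, Hmx2, Hmx3, genes called for both knockouts in opposite directions, the 10 largest positive and 10 largest negative called differences (without clone-like symbols, with a mean of at least 1 CPM in some group), called genes of the intercalated lists, and all type A and type B and non-A non-B list members. Alternatives were RLE scaling, DESeq2 1.42.0, other filters, single Hmx3 Hmx2 tables, the line in place of the table, a replicate block, a joint fit with the other libraries, a Y-linked covariate, leaving out genes by position and leaving out each library.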

Additional observations from a re-analysis of the deposited data

Results flagged for a closer look

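Of 82 groups of 6 Hmx3 Hmx2 libraries examined over the genes whose values are given per library, 6 held a library whose gap to its nearest neighbour took up more of the group's range than the 95% critical value for 6 samples. Chance alone flags about 1 in 20 groups, and groups of 3 were not examined. Hmx3 stood at 0.0647 CPM in Hmx3 Hmx2 knockout replicate 1, against at most 0.0193 CPM in the other knockouts, on 4 reads. Slc26a7, an anion exchanger gene of type A cells, stood at 15.4 CPM in the same library, against at most 11.3 CPM in the other knockouts. Mab21l3 stood at 6.47 CPM in Hmx3 Hmx2 control replicate 5, with 5.02 CPM as the next value. Rbm46 stood at 1.84 CPM in control replicate 1, with 1.13 CPM as the next value. Slc4a8, a sodium-dependent exchanger gene, stood at 27.4 CPM in control replicate 3, with 24.8 CPM as the next value. The clone-named gene Gm5207 stood at 0.0314 CPM in control replicate 3, from 2 reads, and had none in the other controls. It also had none in the 3 Dmrt2 knockouts, against 18 to 34 reads in their controls, so its fitted difference is not a bound.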

How the results depend on the processing

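Of 30 alternatives, all made 3 genes called in opposite directions except the fits of Hmx3 Hmx2 replicates 1 to 3 or 4 to 6 alone (2 each, without Slc26a4) and the fit without X, Y and flanking genes (2, since Hmx2 was not tested). The count of 52 genes (13 higher, 39 lower) became 141 (43 and 98) with DESeq2, 34 (6 and 28) in the joint fit with the other line, 14 (4 and 10) with Hmx3 Hmx2 replicates 1 to 3 alone, 33 (9 and 24) with replicates 4 to 6 alone, and 28 (7 and 21) with the line in place of the table. Without chromosome 3 genes 7 were called higher. The other filters gave 71 (no filter) and 48 (minimum mean of 1 CPM), RLE scaling 51 and the Y-linked covariate 47. Leaving out each library gave 31 to 84 calls, 7 to 23 higher and 23 to 61 lower, lowest without Dmrt2 knockout replicate 2 (31) and highest without Dmrt2 control replicate 1 (84), with 8 higher without Dmrt2 knockout replicate 3, 23 lower without Dmrt2 control replicate 3, and 3 in opposite directions throughout. Replicate numbers do not pair these samples by the labels (correlations of deviations -0.022 to 0.274, 5 of 9 pairs over 0.1, 6 of 9 closest to their own number). A replicate block gave 85 calls (21 higher and 64 lower), 47 of them among the 52, and 3 in opposite directions. Of 1008 values for the 34 named genes 0 changed sign, 870 kept their side of the threshold, 127 lost and 11 gained a call. In every alternative that tested them 12 genes were called: Aqp6, Kit, Oxgr1, Slc4a1, Slc26a4, Tldc2, Hmx2, Dmrt2, P2ry14, Tpm3-rs7, Rps3a2 and Gm9347. The fit of Hmx3 Hmx2 replicates 1 to 3 alone ended, among others, the calls of Slc4a9, Atp6v1g3, Pck1, Dscaml1, Hsd3b2, Fgb and Zfp697, each of which was called in 27 to 29 alternatives. The causes of these changes were not tested. Depth limits Hmx3, Tldc2 and Hmx2 in Hmx3 Hmx2 knockouts, which lie at or near the floor of 3 reads.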

Other observations

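Some called genes outside the lists and the size rule, chosen here after their values were seen, had differences that no alternative or only a few removed. P2ry14, a receptor for UDP-sugars known from intercalated cells, stood at 2.78, 2.89 and 2.39 CPM in Dmrt2 knockouts and 7.28, 5.99 and 7.26 CPM in Dmrt2 controls, with 3.78 to 7.02 CPM in Hmx3 Hmx2 knockouts and 4.24 to 5.53 CPM in their controls. Over all libraries only the Dmrt2 groups were separate. The Hmx3 Hmx2 knockouts lay above the controls within replicates 1 to 3 and overlapped with them within replicates 4 to 6. The difference for P2ry14 was -1.53 ± 0.19 (adjusted p = 7.2e-05), called in all 29 alternatives that tested it. P2ry14 lies on chromosome 3, and the fit without chromosome 3 genes was the alternative that did not test it. Rcan2, a regulator of calcineurin, was like Foxi1 in having a called difference with neither effect called. It stood at 18.9, 17.7 and 19.8 CPM in Dmrt2 knockouts and 21.3, 22.9 and 23.8 CPM in Dmrt2 controls, with 19.8 to 23.5 CPM in Hmx3 Hmx2 knockouts and 18.7 to 20.3 CPM in their controls, which overlapped. Its difference was -0.44 ± 0.08 (adjusted p = 0.0193), called in 25 of 30 alternatives.

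Of the 52 called genes 3 lie within 5 Mb of the targeted gene Dmrt2 on chromosome 19, Dmrt2 included, whose own loss enters the contrast by construction. The share of tested genes in that stretch is not given here, so the count describes position only. Tmem252, a transmembrane protein gene at 24651372 to 24659597, stood at 42.5, 37.6 and 41.2 CPM in Dmrt2 knockouts and 83.3, 93.8 and 113 CPM in Dmrt2 controls, with 62.9 to 93.6 CPM in Hmx3 Hmx2 knockouts and 59.1 to 81.9 CPM in their controls. Its difference was -1.36 ± 0.17 (adjusted p = 0.0015). The unnamed transcript 2610016A17Rik at 25648498 to 25649617, next to the start of Dmrt2, had a difference of -3.41 ± 0.59 (adjusted p = 0.0074). Slc25a45, a mitochondrial carrier gene elsewhere on that chromosome, had a difference of -0.83 ± 0.14 (adjusted p = 0.0140).

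The pseudogene Tgif2-ps2 had a difference of -12.74 ± 2.12 (adjusted p = 0.0237) that does not follow the groups alone. It varied by library among the Dmrt2 controls, and between replicates 1 to 3 and 4 to 6 among the Hmx3 Hmx2 knockouts. Dmrt2 knockouts held 4, 1 and 4 reads and Dmrt2 controls 182, 2 and 415. Hmx3 Hmx2 knockout replicates 1 to 3 held 220, 266 and 185 reads and replicates 4 to 6 held 0, 0 and 4, against 0 to 2 in each of their controls. The Hmx3 Hmx2 effect on Tgif2-ps2 was 8.45 in replicates 1 to 3 and -0.17 in replicates 4 to 6. Its call ended in 9 of 29 alternatives.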
